A study of Mus musculus with 8 samples.

Results

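Lysyl oxidases and procollagen proteinases carry out the last steps of collagen assembly outside the cell. The tolloid proteinases cut the C-terminal propeptide from fibrillar procollagen, enhancer proteins speed that cut, and the collagen then assembles into fibrils. Lysyl oxidases are copper-dependent amine oxidases that oxidize lysine and hydroxylysine residues in collagen and elastin, from which covalent cross-links form. BMP1, the first tolloid proteinase, also removes the propeptide of the LOX proenzyme. TGFβ1 is a cytokine known for its effects on matrix genes in fibroblasts and endothelial cells. The 10 genes described here were the 5 lysyl oxidases (Lox, Loxl1, Loxl2, Loxl3 and Loxl4), the 3 tolloid proteinases (Bmp1, Tll1 and Tll2) and the 2 procollagen C-proteinase enhancers (Pcolce and Pcolce2). They were taken by symbol from the 55471 genes of the count table, and each symbol was found there.

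The RNA came from SV-LEC, a mouse lymphatic endothelial cell line from mesenteric adventitial tissue that had been immortalized with SV40, so every library carried that immortalization. Poly(A) RNA was sequenced from 4 samples left untreated and 4 samples that received TGFβ1 at 10 ng/ml for 72 h. The study used these libraries to look for factors that the cytokine induces in lymphatic endothelial cells. All samples came from 1 cell line and the study's methods describe them as technical replicates, so the p-values below measure the spread between these samples and not between animals or lines.

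Libraries held 18952504 to 26386941 counts, and 3 counts corresponded to between 0.113 and 0.162 CPM (counts scaled to library size, with factors between libraries from the TMM method). Among genes that commonly respond to TGFβ, Ccn2, Smad7 and Skil rose, by log2 fold changes of 2.06, 0.89 and 0.63, and Tgfbi was near 0 in both groups. The labelled cell type was only partly borne out by its markers. Podoplanin (Pdpn) averaged 342 CPM untreated and 313 CPM treated and Flt4 averaged 21.6 and 29.3 CPM. By contrast, Prox1, Lyve1, Pecam1, Cdh5 and Emcn averaged at most 0.168 CPM in either group. Tie1 and Erg had 0 counts in all 8 libraries, and Tek averaged 0.659 CPM untreated and 0.569 CPM treated. The 11 endothelial markers summed to 357 to 394 CPM untreated and 360 to 370 CPM treated, nearly all of it Pdpn, which fell slightly, while Flt4 rose and Kdr rose from 11.6 to 22.1 CPM (log2 fold change 0.93). Of 7 markers of fibroblasts and mural cells, 6 were tested, 5 rose and Pdgfra fell. Among all genes tested, 37.6% were called higher and 38.0% lower. Myh11 passed the filter on low counts through the treated libraries alone. The summed level of these markers went from 462 to 501 CPM up to 1104 to 1179 CPM, and untreated it was already above the endothelial sum. Of 5 leukocyte markers Cd68 alone was tested and rose from 6.96 to 15.9 CPM, and neither adipocyte marker was tested. Of the 4 epithelial markers Epcam and Cdh1 failed the filter, and Krt8 and Krt18 passed it through the treated libraries alone, with 2 to 12 and 2 to 8 counts untreated and 17 to 35 and 16 to 47 counts treated. What part these shifts have in the results below was not tested, and in bulk RNA fewer cells of a type and less RNA per cell cannot be told apart.

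Exposure to TGFβ1 was followed by higher mRNA of most of these genes, but not of Lox itself. Bmp1, Tll1, Loxl3, Loxl4 and Pcolce2 rose between 2.60-fold and 5.78-fold, Loxl2 rose 1.83-fold and Pcolce rose 1.16-fold. Lox, the most abundant of the 10 per kb of exon, and Loxl1 were not called, and Tll2 was at or below 3 counts in every library. Of the 9 genes that passed the filter on low counts, 7 were higher and 0 lower at an FDR under 0.05 (edgeR likelihood ratio test over all genes), in a comparison in which 37.6% of the 13818 genes tested were called higher and 38.0% lower. The same 7 genes were those whose 4 treated libraries all lay above the 4 untreated ones, as did 34.7% of genes tested. Over all genes the groups did not overlap in 69.8%, and in 35.1% the treated libraries were the lower ones. Their log2 fold change was at least 1 in 5 genes and at least 1.5 in 4, against 10.9% and 6.05% of all genes tested. The median over the 9 was 1.38, beside -0.01 over all genes tested. The members were chosen with earlier results of these data known, so their contrast with all genes is a description only. No tested member passed the filter through treated libraries alone, since the lowest count in any library was 42, for Pcolce2.

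**Figure D1:**
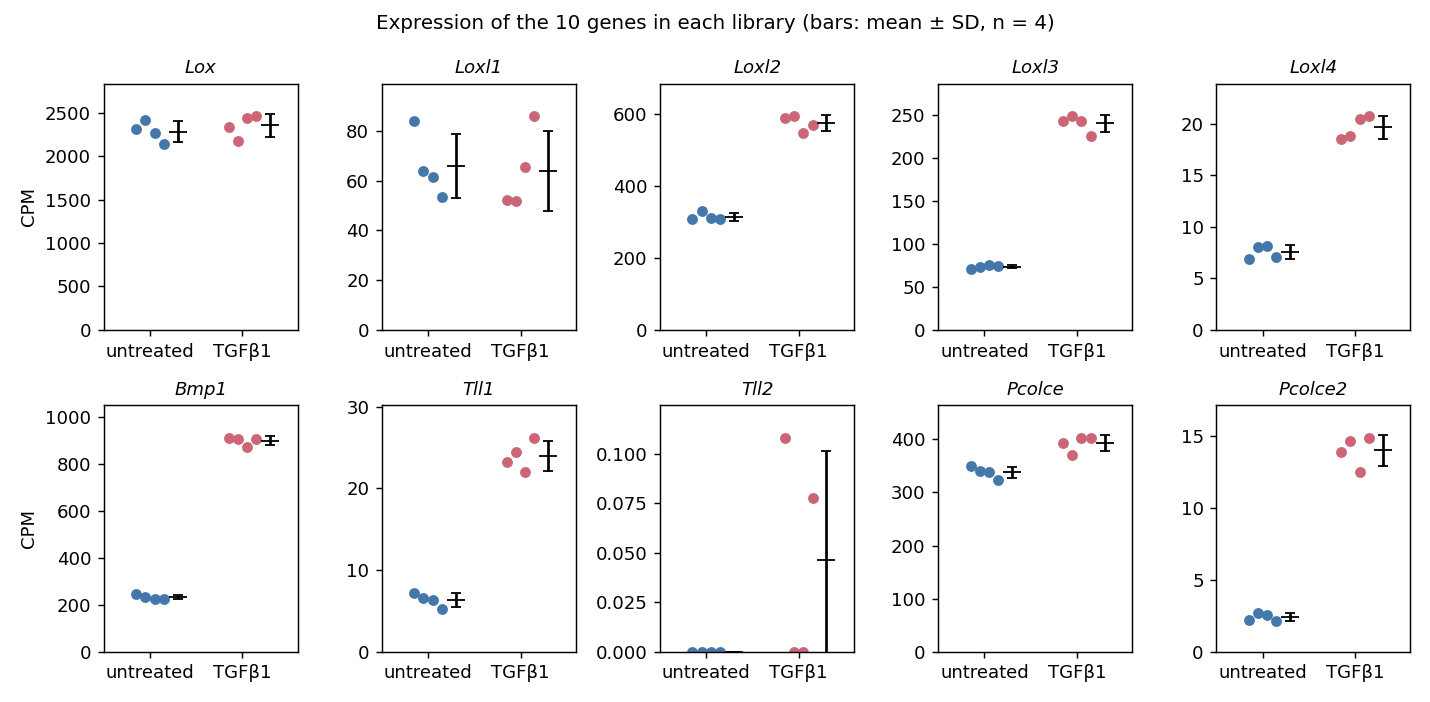
Normalized level (CPM, linear axis from 0, own scale in each panel) of the 10 genes in each of the 4 untreated and 4 TGFβ1-treated libraries. Points are libraries and lines are group means with SD. Groups are apart for 7 genes, and overlap for Lox, Loxl1 and Tll2.

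**Figure D2:**
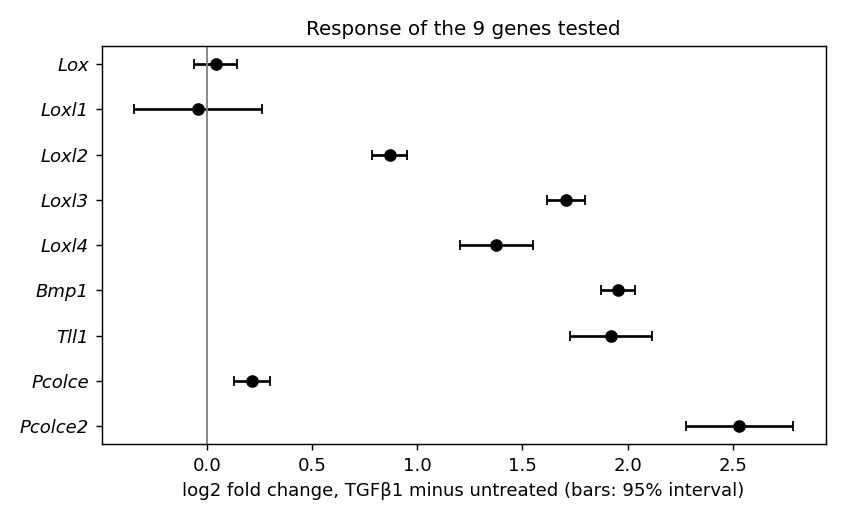
Log2 fold change (TGFβ1 over untreated) of the 9 genes tested, with 95% confidence intervals from the edgeR fit. Intervals of Lox and Loxl1 span 0, and Pcolce2 has the highest value, 2.53.

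Among the lysyl oxidases, Lox set the level of the family. Lox (chr18:52516067-52529867, minus strand, GRCm38) encodes the enzyme that gives the family its name, and was at 2316, 2418, 2262 and 2135 CPM in untreated libraries 1 to 4 and at 2339, 2169, 2438 and 2464 CPM in treated libraries 1 to 4. The groups overlapped, with 2 treated libraries above all untreated ones. Means were 2283 ± 118 and 2353 ± 133 CPM (SD, n = 4), a log2 fold change of 0.04 (SE 0.052, FDR 0.447 by edgeR), with a 95% interval from -0.06 to 0.15, or 0.961-fold to 1.11-fold. Scaling by total counts alone gave -0.02. Per kb of exon its level was 478 ± 24.7 and 492 ± 27.9 CPM, which ranked 26 and 38 among 13814 genes in the 2 groups.

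Loxl1 (chr9:58287738-58313186, minus strand), linked to elastic fibre upkeep, was at 83.9, 64.1, 61.6 and 53.6 CPM untreated and 52.4, 51.7, 65.5 and 86.1 CPM treated. Both groups covered the same range, and the means, 65.8 ± 12.9 and 63.9 ± 16.1 CPM (SD, n = 4), gave a log2 fold change of -0.04 (SE 0.154, 95% interval -0.34 to 0.26, FDR 0.820 by edgeR). Libraries spread widely for this gene: its coefficient of variation was 19.6% untreated and 25.2% treated, where the median of the 2460 and 2397 genes within 0.5 log2 units of its level was 4.14% and 3.92%. Libraries also differed in how their counts followed gene GC content, and Loxl1 transcripts are 61.0% GC. In both groups the order of the 4 libraries by Loxl1 was their order by the slope of log2 CPM on GC percent, which ran from 0.00667 to -0.00572 untreated and from 0.00446 to -0.00459 treated. The same order was seen for Pcolce in both groups, for Lox in the treated group and for Bmp1 and Tll1 in the untreated group. The longest transcripts were 54.8% GC for Pcolce, 43.9% for Lox, 56.7% for Bmp1 and 47.1% for Tll1. In neither group was it seen for Loxl2, Loxl3, Loxl4 and Pcolce2, at 51.7%, 53.4%, 56.6% and 46.2% GC. What part GC content has in the spread of Loxl1 was not tested. With that slope as a covariate, a setting chosen after seeing the data, the log2 fold change of Loxl1 was -0.04 (SE 0.0581, 95% interval -0.16 to 0.07, FDR 0.498 by edgeR). The slope came from these same libraries and already had the order of Loxl1 in them. The narrower interval is therefore no separate support for a lack of change.

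**Figure D3:**
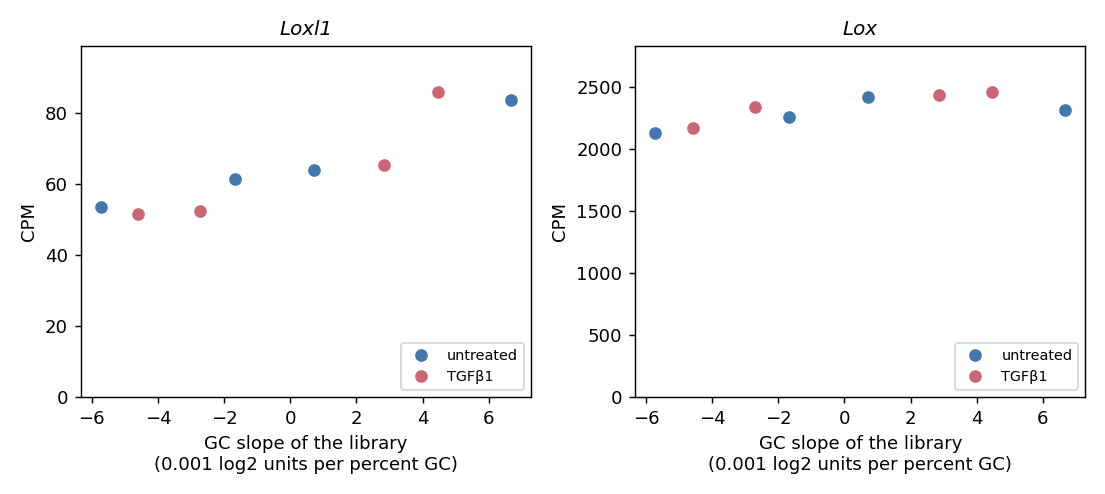
Level (CPM, linear axis from 0) of Loxl1 and of Lox in each library against the slope of that library's log2 CPM on gene GC content (axis scaled to thousandths of a log2 unit per percent GC), with untreated and TGFβ1-treated libraries in separate colours. Loxl1 libraries keep the same order on both axes within each group, from 53.6 to 83.9 CPM untreated and from 51.7 to 86.1 CPM treated, and Lox libraries keep it in the treated group but not in the untreated group.

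The 3 oxidases that carry scavenger receptor domains, Loxl2, Loxl3 and Loxl4, all rose. Loxl2 (chr14:69609068-69695834, plus strand), known to cross-link basement membrane type IV collagen, was at 308, 331, 311 and 307 CPM untreated and 587, 594, 547 and 567 CPM treated. Every treated library was above every untreated one, with means of 314 ± 11.3 and 574 ± 21.4 CPM (SD, n = 4) and a log2 fold change of 0.87 (SE 0.0433, FDR 2.81e-87 by edgeR). Of its 75-base stretches, 43.6% also occur on the same strand in other genes, among them the pseudogene Gm21451 (chr14:69390854-69480287), which had at most 1 count in a library. Reads from those stretches may not have been counted, so the level of Loxl2 per length may be understated.

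Loxl3 (chr6:83034173-83052562, plus strand), which takes part in palate and spine development, was at 71.0, 73.8, 75.6 and 74.3 CPM untreated and 244, 250, 244 and 226 CPM treated. The treated libraries were well clear of the untreated ones, and the gene rose 3.26-fold (95% interval 3.07 to 3.48, log2 fold change 1.71, SE 0.0461, FDR 2.13e-290 by edgeR), the steepest rise among the oxidases. Its exons overlap those of Htra2, a mitochondrial protease gene on the opposite strand, over 535 bases or 11.6% of their length. The library kit marks strand but the strand setting of the counting is not given in the sources used here. Htra2 itself moved the other way, from 83.1, 79.4, 88.3 and 80.7 CPM to 63.4, 62.6, 66.5 and 66.0 CPM.

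Loxl4 (chr19:42593982-42612813, minus strand) was the least abundant oxidase per kb of exon, and was at 6.89, 8.08, 8.12 and 7.10 CPM untreated and 18.5, 18.8, 20.5 and 20.8 CPM treated. Groups did not overlap, and the level rose 2.60-fold (95% interval 2.30 to 2.93, log2 fold change 1.38, SE 0.0885, FDR 3.92e-55 by edgeR).

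Per kb of exon, the untreated order was Lox at 478, Loxl2 at 58.1, Loxl1 at 20.0, Loxl3 at 16.0 and Loxl4 at 1.79 CPM. Loxl1 and Loxl3 overlapped there, at 16.2 to 25.5 and 15.4 to 16.4 CPM per kb. After TGFβ1 the order was Lox at 492, Loxl2 at 106, Loxl3 at 52.3, Loxl1 at 19.4 and Loxl4 at 4.66 CPM per kb, with no overlap between neighbours. Lox kept the first place while its share of the summed level per kb went from 83.3% ± 0.318 to 72.9% ± 1.28 (SD, n = 4). The share of Loxl2 went from 10.1% ± 0.328 to 15.8% ± 1.17 and that of Loxl3 from 2.80% ± 0.179 to 7.76% ± 0.617. With the shared stretches of Loxl2 left out of its length, Lox held 77.2% and 65.0%.

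Ratios within a library do not depend on scaling between libraries, and were tested for Lox against each other oxidase. The log2 ratio of Lox to Loxl2 counts was 2.86 ± 0.046 untreated and 2.03 ± 0.13 treated, that of Lox to Loxl3 was 4.95 ± 0.094 and 3.29 ± 0.14, and that of Lox to Loxl4 was 8.24 ± 0.11 and 6.90 ± 0.057 (SD, n = 4). Each of these 3 ratios fell, with p = 0.0286 by a two-sided exact permutation test, the smallest that 4 against 4 libraries allow (0.0357 adjusted over the 5 ratios tested). Lox was nearly level while Loxl2, Loxl3 and Loxl4 were each fully apart between the groups. The ratios therefore restate those rises, and their p-values are no separate support for them. The ratio of Lox to Loxl1 was 5.13 ± 0.24 and 5.23 ± 0.28, for which the exact permutation test gave p = 0.543 (adjusted 0.543).

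**Figure D4:**
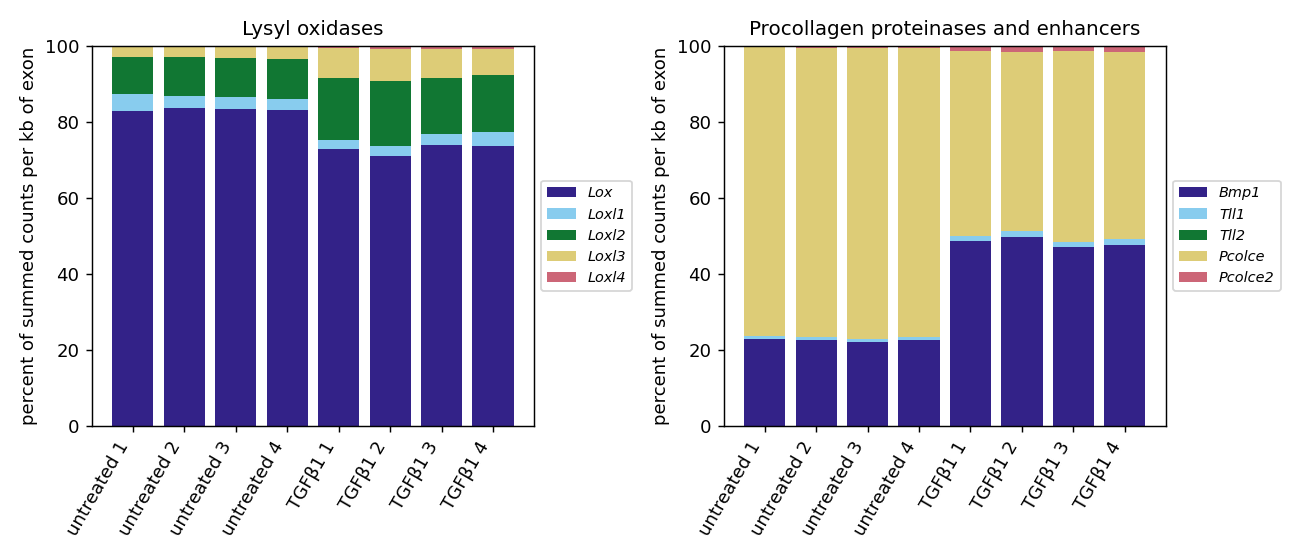
Share of the summed counts per kb of exon (percent, axis from 0 to 100) held by each lysyl oxidase, and by each tolloid proteinase or enhancer, in every library, 1 stacked bar per library. Lox holds 83.0% to 83.7% in untreated and 71.1% to 74.0% in treated libraries, and Bmp1 22.1% to 22.8% and 46.9% to 49.7%.

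Of the proteinases, Bmp1 and Tll1 rose by similar factors from very different levels. Bmp1 (chr14:70474558-70520234, minus strand), the main procollagen C-proteinase, was at 244, 233, 226 and 224 CPM untreated and 911, 907, 870 and 903 CPM treated. Treated libraries were far above untreated ones, with means of 232 ± 9.10 and 898 ± 19.0 CPM (SD, n = 4), a 3.87-fold rise (95% interval 3.66 to 4.10). The log2 fold change was 1.95 (SE 0.0412), the edgeR likelihood ratio statistic was 2131, its FDR was too small to be represented, and the edgeR quasi-likelihood FDR was 2.24e-14. Counts per gene do not separate the BMP1 form from the longer mammalian tolloid form of its 7 annotated transcripts.

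Tll1 (chr8:64014931-64206271, minus strand), a tolloid-like proteinase needed for septation of the heart, was at 7.18, 6.54, 6.33 and 5.22 CPM untreated and 23.2, 24.5, 22.0 and 26.2 CPM treated. No treated library came near the untreated ones, and the rise was 3.79-fold (95% interval 3.31 to 4.34, log2 fold change 1.92, SE 0.0990, FDR 8.39e-86 by edgeR). Tll2 (chr19:41082753-41206835, minus strand), the other tolloid-like proteinase, had 0 counts in all untreated libraries and 2, 0, 0 and 2 counts in treated libraries 1 to 4. It was not tested, and at or below 3 counts a library no fold change can be given.

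The enhancers, which bind the C-propeptide and have no proteinase activity of their own, differed in size of change. Pcolce (chr5:137605103-137613784, minus strand) was at 350, 340, 339 and 324 CPM untreated and 394, 371, 403 and 404 CPM treated. The groups were close but did not overlap, and the rise was 1.16-fold (95% interval 1.10 to 1.23, log2 fold change 0.22, SE 0.0429, FDR 1.01e-06 by edgeR). It shares 112 exon bases with Fbxo24, a low gene at 1.09 to 2.22 CPM over the 8 libraries.

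Pcolce2 (chr9:95637601-95698096, plus strand) was at 2.17, 2.70, 2.58 and 2.13 CPM untreated and 13.8, 14.7, 12.5 and 14.9 CPM treated, from 42 to 72 counts in untreated libraries and 254 to 383 in treated ones. Its rise of 5.78-fold (95% interval 4.85 to 6.89, log2 fold change 2.53, SE 0.129, FDR 3.31e-97 by edgeR) was the largest of the 9, from the lowest untreated level per kb of exon among them, 0.518 CPM. The treated level was 3.02 CPM per kb.

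Per kb of exon, untreated Pcolce stood at 88.4 ± 2.79 CPM, above Bmp1 at 26.1 ± 1.03, Tll1 at 0.814 and Pcolce2 at 0.518 CPM. After TGFβ1, Pcolce at 103 ± 4.00 and Bmp1 at 101 ± 2.15 CPM per kb overlapped, as did Tll1 at 3.09 and Pcolce2 at 3.02. Bmp1 went from 22.5% ± 0.344 to 48.2% ± 1.22 of the summed level per kb and Pcolce from 76.3% ± 0.317 to 48.9% ± 1.35 (SD, n = 4). With the longest transcript as length the treated shares were 51.0% and 46.5%, so which of the pair stands first after treatment depends on the length used. The log2 ratio of Bmp1 to Pcolce counts within a library went from -0.55 ± 0.028 to 1.19 ± 0.076 (p = 0.0286 by a two-sided exact permutation test, 0.0357 adjusted). That p-value restates the larger rise of Bmp1 and is no separate support for it.

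Start-site sequence was read for the members that the RefSeq promoter table holds (GRCm38.p6), which were Loxl4, Tll1, Tll2, Pcolce and Pcolce2, 5 of the 10. The 250 bases before each start were searched on both strands for CAGAC, the core of the SMAD binding element, for its palindrome GTCTAGAC, and for GGGCGG, the GC box of SP1-type factors, none of which contains another. CAGAC was found in Loxl4 and Tll1, as in 42.2% of the 32851 promoters of the table, and GTCTAGAC in 0 of the 5, against 0.167% of promoters. GGGCGG was found in all of them but Tll1, against 32.7% of promoters. A match is a description of letters and not a binding site. The 2 windows shown are those of Loxl4, which held the most matches, and Pcolce2, which had the largest rise, without the bases that lie in annotated exons. Capitals mark CAGAC and GGGCGG, or its reverse complement CCGCCC.
Loxl4, chr19:42612814-42613056, minus strand: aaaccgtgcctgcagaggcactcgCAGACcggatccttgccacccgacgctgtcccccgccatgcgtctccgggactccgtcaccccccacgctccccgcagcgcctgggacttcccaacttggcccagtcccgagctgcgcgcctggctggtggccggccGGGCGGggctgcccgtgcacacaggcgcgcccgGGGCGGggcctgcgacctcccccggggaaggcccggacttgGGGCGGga
Pcolce2, chr9:95637378-95637600, plus strand: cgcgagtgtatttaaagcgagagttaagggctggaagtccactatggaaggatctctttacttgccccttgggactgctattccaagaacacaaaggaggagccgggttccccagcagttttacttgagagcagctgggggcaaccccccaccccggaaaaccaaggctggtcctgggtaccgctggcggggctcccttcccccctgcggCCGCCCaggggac
In Loxl4, CAGAC starts at -226 and GGGCGG at -89, -56 and -15 from the RefSeq start. The Pcolce2 window holds CCGCCC at -40 and no CAGAC.

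Other enzymes that act on procollagen or on these proteins moved both ways, in a comparison where 37.6% of all genes tested were higher and 38.0% lower. The procollagen N-proteinases, which remove the other propeptide, were tested for 3 of 5 genes and all 3 rose: Adamts14 from 10.2 ± 1.07 to 24.1 ± 0.863 CPM (log2 fold change 1.25), Adamts2 from 33.5 ± 3.84 to 50.0 ± 2.07 CPM (0.57) and Adamts3 from 10.6 ± 0.688 to 13.7 ± 1.65 CPM (0.36). Mep1a and Mep1b were not tested. Of 4 proprotein convertases, which cut the prodomain of BMP1, 2 rose and 2 fell, a split like that of all genes, led by Pcsk7 at a log2 fold change of 0.47 and Pcsk5 at -0.68. Of the 6 other cross-linking and amine oxidase enzymes 3 were tested. Aoc2 rose from 2.98 to 4.89 CPM (log2 fold change 0.71). The transglutaminases Tgm2 and Tgm1 fell, from 66.9 to 34.7 CPM (-0.95) and from 7.93 to 1.07 CPM (-2.87).

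Substrates moved both ways. Of the 11 fibrillar collagen chains, 7 rose, 3 fell and 1 was not called, beside 37.6% higher and 38.0% lower of all genes tested, with a median log2 fold change of 0.83 beside -0.01. Among the 9 that passed the filter on low counts in each group by itself, 6 rose and 2 fell. Col2a1 passed through the treated libraries alone, with 3 to 9 counts in untreated and 76 to 131 counts in treated libraries. Col24a1, 1 of the 3 that fell, passed through the untreated libraries alone. It had 13 to 23 counts untreated and 8 to 16 treated, its groups overlapped in CPM, and DESeq2 did not call it (FDR 0.157). Col3a1 fell from 3408 ± 342 to 1805 ± 72.1 CPM. Among 12 other tolloid substrates 10 were tested, of which 7 rose and 1 fell. Lama3, a laminin chain, and Col7a1, the anchoring fibril collagen, passed the filter through the treated libraries alone, Lama3 with 0 to 6 counts in untreated and 25 to 41 counts in treated libraries, and without them 5 of 8 rose. The growth factor binding protein Igfbp3 fell from 20.0 ± 1.56 to 7.99 ± 1.22 CPM. Without untreated replicate 4 the number that fell was 2.

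Of 9 lysyl oxidase substrates and binding partners, 5 rose and 3 fell, beside 37.6% higher and 38.0% lower of all genes tested. Thbs1, a matricellular glycoprotein, rose from 402 ± 25.7 to 2108 ± 90.8 CPM and Ltbp4, a latent TGFβ binding protein of elastic fibres, fell from 121 ± 15.2 to 53.3 ± 4.76 CPM. Elastin (Eln) was at 0.481 ± 0.0958 and 0.491 ± 0.216 CPM and was not called. The 14 collagen hydroxylases and chaperones, which act inside the cell before secretion, split into 10 that rose and 4 that fell, at the ends Plod2, the telopeptide lysyl hydroxylase, at a log2 fold change of 1.07 and P4ha2, a prolyl hydroxylase subunit, at -0.27. Of 5 copper delivery genes, which supply the metal of the lysyl oxidases, 3 rose and 2 fell, close to the split of all genes. At the ends were the chaperone Atox1 at a log2 fold change of 0.80 and the transporter Atp7b at -0.68. Atp7b was low, at 2.17 CPM untreated and 1.36 CPM treated. The related transporter Atp7a rose from 32.7 ± 1.27 to 43.5 ± 2.63 CPM (log2 fold change 0.41).

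**Figure D5:**
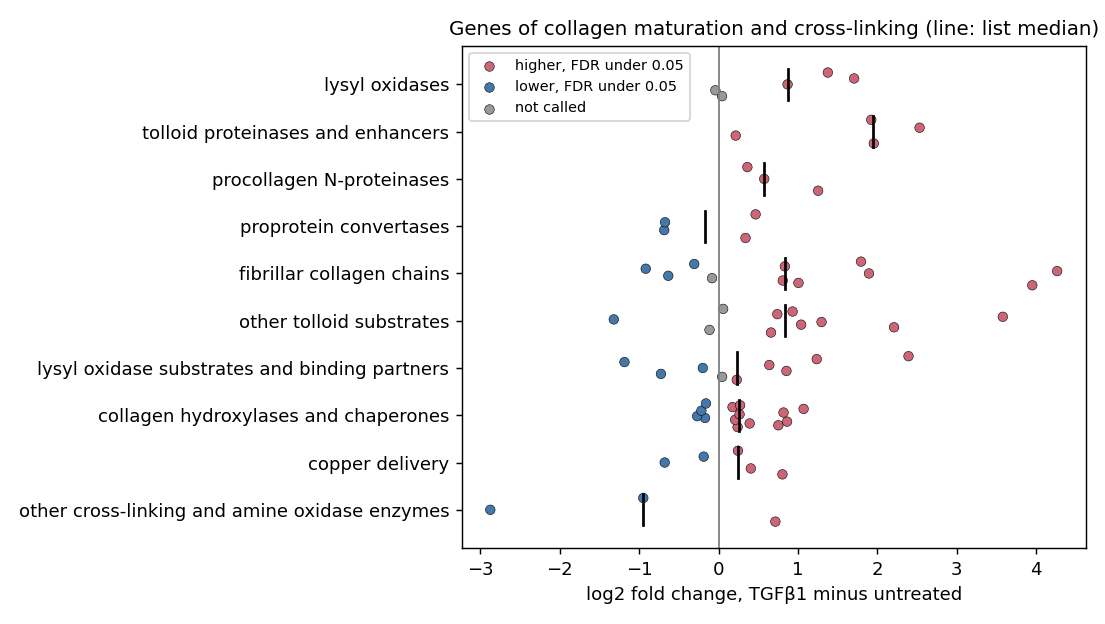
Log2 fold change (TGFβ1 over untreated) of every tested gene of the 2 member families and the related gene lists, 1 point per gene with the list median. All 4 tested proteinases and enhancers and 3 of 5 lysyl oxidases rose, while the proprotein convertases split into 2 and 2. Of all genes tested, 37.6% were called higher and 38.0% lower.

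Genes with a pattern like that of Lox and of Bmp1 were ranked by the mean absolute difference of log2 CPM, each centred on its own mean over the 8 libraries. For Lox the nearest were Gm49797 at 0.0313, Prdx5 at 0.0324 and Ephb4 at 0.0349. For Bmp1 they were Col18a1 at 0.0399, Fst at 0.0437 and Nfatc1 at 0.0459. Col18a1, the type XVIII collagen chain, went from 27.1 ± 1.43 to 109 ± 4.62 CPM, and Fst, the activin antagonist follistatin, from 40.5 ± 0.827 to 155 ± 6.16 CPM.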

How the data were processed

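Per the labels, libraries were made from poly(A) RNA with a stranded kit and read from a single end over 75 bases. The submitters' processing notes name bcl2fastq 2.20.0.422, STAR 2.7.3a, featureCounts 1.5.1 and the build GRCm38 (mm10). The annotation release and the strand setting of the counting are not given in the sources used here. The authors deposited 1 table of raw read counts per gene with no normalization. The 55471 gene identifiers were matched to GENCODE M21 (55230 matched) for positions, exon lengths and overlaps.

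Genes were filtered with filterByExpr, which left 13818, scaled by TMM and tested with the edgeR generalized linear model likelihood ratio test, 4 TGFβ1-treated against 4 untreated libraries, with Benjamini-Hochberg FDR over all genes tested and a threshold of 0.05. Standard errors came from the Fisher information of the fit, and 95% intervals are 1.96 SE on each side. Ratios between members used counts plus 0.5. Levels between genes were compared as CPM per kb of the union of exons. Tools were R 4.3.3, edgeR 4.0.16, DESeq2 1.42.0 and Python 3.11.15 with scipy 1.17.1. The scripts were tested on simulated counts. Replicate libraries differed by more than sampling noise (chi-square per degree of freedom 2.37 to 7.84 over 12 pairs within groups). Each library was counted once, though this spread does not show that the samples were independent. Intervals and floors of 3 counts cover counting error only where no replicate spread enters.

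As alternatives, the fit was repeated with DESeq2 or the quasi-likelihood test in place of the likelihood ratio test, with the size factors of DESeq2 or total counts for scaling, with no filter, with a filter at 1 CPM in 4 libraries, at an FDR of 0.01, with a prior count of 2, with a replicate block and without each library in turn. A GC slope covariate and a length of Loxl2 without shared stretches were added after seeing the data. The members and gene lists were chosen with earlier results of these data known. Named genes were every member, the TGFβ response genes (1 of which is not reported here), the most changed called gene in each direction of each list, every tested gene of lists with at most 3 tested, and the 3 genes nearest to Lox and to Bmp1. Genes named besides, such as Eln, Htra2, Fbxo24, Gm21451 and the cell type markers, were chosen for a role, an overlap or a check.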

Additional observations from a re-analysis of the deposited data

How the results depend on the processing

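The 7 members called higher kept their direction and call in all 18 alternatives of the fit: log2 fold changes ranged from 0.80 to 0.89 for Loxl2, 1.64 to 1.74 for Loxl3, 1.31 to 1.41 for Loxl4, 1.89 to 1.97 for Bmp1, 1.85 to 1.98 for Tll1, 0.15 to 0.24 for Pcolce and 2.46 to 2.60 for Pcolce2. Lox was uncalled in all of them and its sign turned with total counts (-0.024). Loxl1 was uncalled too, and ranged from -0.22 to 0.093 with a library left out, with the sign turning without untreated replicate 1 (0.093), treated replicate 1 (0.042) or treated replicate 2 (0.049). Tll2 was called only without a filter (FDR 0.0430 by edgeR), from 0 counts untreated and at most 2 counts in a treated library, and its fitted fold change is no bound and is not given. The number of other tolloid substrates that fell was 1 to 2 with a library left out, 2 without untreated replicate 4. Counts of other lists moved too. Among the fibrillar collagen chains, 2 fell with DESeq2, at an FDR of 0.01 or with the filter at 1 CPM, and 4 with total counts. Among the copper delivery genes, 2 rose with total counts or at an FDR of 0.01. The longest transcript as length gave Lox 82.9% untreated, Bmp1 24.5% and 51.0% and Pcolce 74.5% and 46.5%, and Loxl2 without shared stretches gave Lox 77.2% and 65.0%.

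Same-numbered libraries did not deviate together (correlations -0.10, -0.06, -0.03 and -0.19), so the numbers are taken only as names. With a replicate block 7 members were higher, as were 5075 of all genes against 5198 without it. The ratio differences under the block kept their values, -0.83 for Lox to Loxl2, -1.66 for Lox to Loxl3, -1.34 for Lox to Loxl4 and 1.74 for Bmp1 to Pcolce, at an adjusted p of 0.156 by an exact sign-flip permutation, which cannot pass with 4 pairs. With a library left out they ranged from -0.87 to -0.77, -1.72 to -1.61, -1.38 to -1.29 and 1.71 to 1.77, at an adjusted p of 0.0714, which 3 against 4 libraries cannot better in the exact permutation test. Lox to Loxl1 ranged from -0.019 to 0.23, with the sign turning without untreated replicate 1. Among the members, Tll2 was the only gene at or below 3 counts.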
